A study of Homo sapiens with 9 samples.

Results

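The genes described here are 41 of the 42717 genes counted in 3 pancreatic cancer cell lines: 19 cytosolic aminoacyl-tRNA synthetases, or subunits of one, and 22 genes known as ATF4 itself or its targets in the amino acid response. They were chosen by gene symbol, with no measured value or threshold in the rule, but the list was put together with expression differences among these same 9 libraries known, so the numbers of genes called below describe the list and are no independent evidence for it. S2-007, S2-020 and S2-028 are sublines of the human pancreatic adenocarcinoma line SUIT-2, and each was sequenced as 3 mRNA libraries from untreated cells kept in DMEM with inactivated fetal bovine serum. The study compared the sublines for where they hold maspin, the product of SERPINB5: S2-007 has the protein in nucleus and cytoplasm, S2-028 mainly in the cytoplasm, and S2-020 only weakly. SERPINB5 stood at 211.5 ± 9.10, 6.55 ± 0.428 and 27.7 ± 2.75 CPM (read counts scaled to library size; mean ± SD, n = 3 libraries per line) for S2-007, S2-020 and S2-028. Each group is 1 subline, so a difference between groups is a difference between these sublines, and no group shows the effect of maspin alone. The labels do not say whether the 3 libraries of a line came from separate cultures, so the p-values measure the spread between these libraries, which may be technical.

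Aminoacyl-tRNA synthetases join each amino acid to its tRNA and so supply the ribosome. When uncharged tRNA accumulates, the kinase GCN2 phosphorylates the initiation factor eIF2α, which lowers most translation but favours that of the transcription factor ATF4. ATF4, paired with C/EBP proteins, acts on composite elements at genes for amino acid synthesis, amino acid uptake and tRNA charging, and other eIF2α kinases reach the same genes from other stresses. ATF4 is regulated largely at translation, so its mRNA is not a reading of its protein. Carcinomas commonly carry high levels of the amino acid transporters in this program.

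Total counts ran from 60328748 to 86253923 per library, and each of the 41 genes passed the filter on low counts in all 3 comparisons. The epithelial markers KRT7, KRT8, KRT18, KRT19, EPCAM and CDH1 were present in every library. Acinar, islet, stromal, endothelial and immune markers were low, but not all were absent. PECAM1, an endothelial marker, was detected in every library at 5.23 to 8.86 CPM (319 to 717 counts). COL1A1, a stromal marker, was detected in every library too, at 1.00 to 5.12 CPM. The others reached at most 1.07 CPM (PDGFRB). The summed epithelial markers ran from 9539 to 10073 CPM in S2-007, from 4308 to 5426 CPM in S2-020 and from 15156 to 17763 CPM in S2-028. Against S2-007, the log2 fold changes of the 6 markers were positive for 4 and negative for 2 in S2-028, and negative for all 6 in S2-020. Thus S2-020, where most of the 41 genes were highest, was also the line lowest in these markers. The part of this difference between the lines in the results below was not tested. In bulk RNA, fewer cells expressing a gene and less RNA per cell cannot be told apart.

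S2-020 carried the highest level of most of the program. Its mean was the highest of the 3 lines for 33 of the 41 genes, against 33.5% of the 28019 genes that passed the filter on low counts over all 9 libraries. The other 8 genes were split between S2-007 (CARS1, HARS1, VARS1 and SLC7A11) and S2-028 (QARS1, DDIT4, TRIB3 and SLC1A5). A gene was called where the edgeR quasi-likelihood test gave a Benjamini-Hochberg adjusted p under 0.05 over all genes tested and the change was at least 1.5-fold in either direction. In S2-020 against S2-007, 18 of the 41 genes were called higher and 1 lower, where 9.57% and 12.1% of all 26657 genes tested were called higher and lower. Their log2 fold changes had a median of 0.42, beside -0.05 over all genes, and 36 of the 41 values were positive.

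In S2-028 against S2-020, 18 of the 41 genes were called lower and 0 higher, where 10.1% and 12.1% of all 26031 genes tested were called lower and higher. With edgeR, 3 of the 41 were higher at an unadjusted p under 0.05. DESeq2 and edgeR's likelihood ratio test also gave 0 for this count and for every other count of 0 given here for a gene list, 30 in all over the lists and comparisons. The median log2 fold change was -0.46, beside 0.02 over all genes. In S2-028 against S2-007, the comparison that the study was built on, the list split: 8 genes were called higher and 5 lower, where 10.2% and 8.19% of all 26371 genes tested were, and the median was 0.03, beside 0.00 over all genes. The 3 comparisons share libraries, so the counts above are not independent of each other. Over the 3 comparisons 14 genes were called in none, 8 in 1, 15 in 2 and 4 in all 3 (ATF5, DDIT3, SLC7A5 and SLC3A2).

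**Figure D1:**
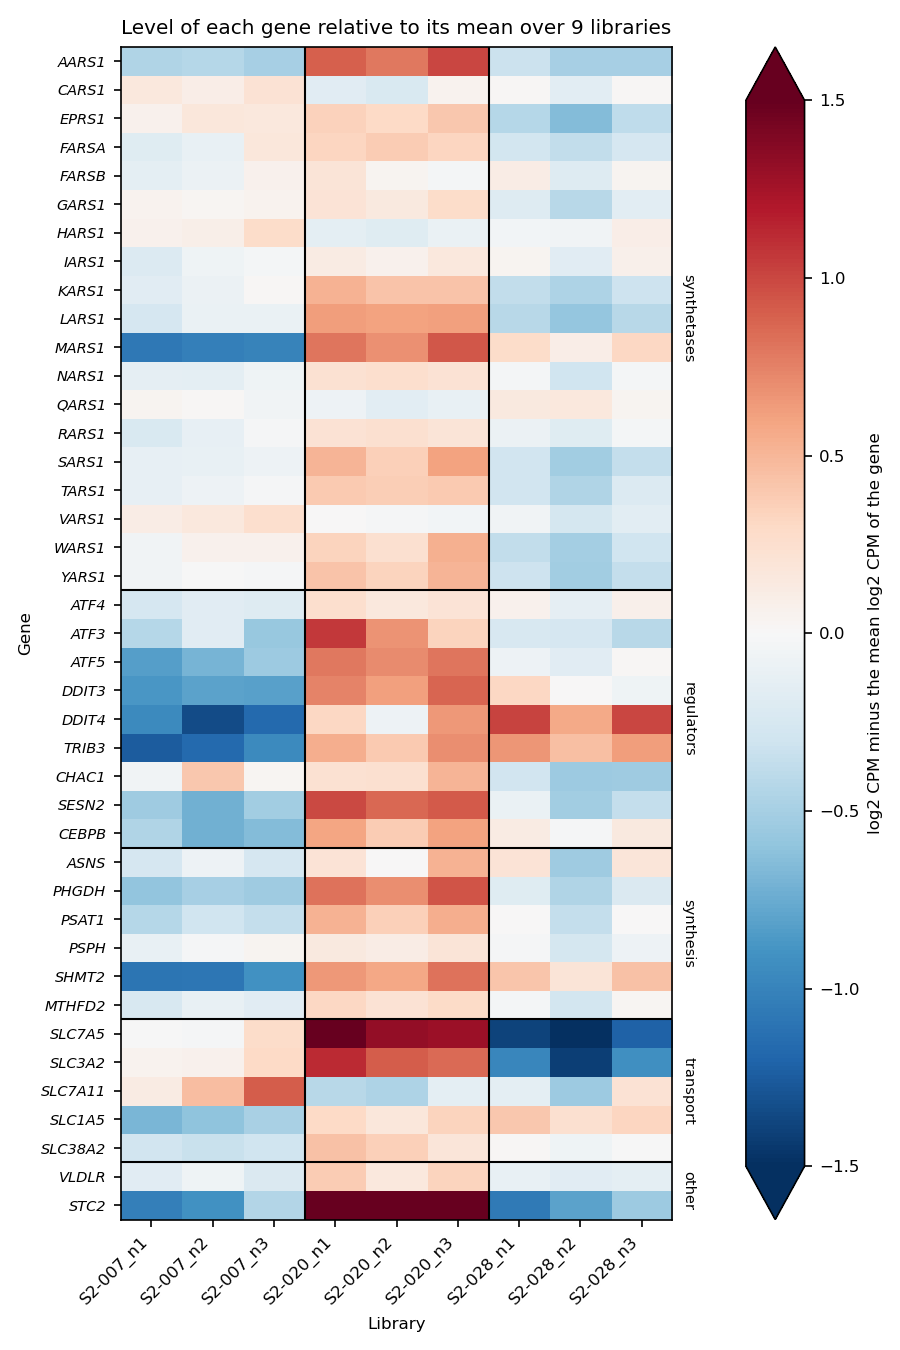
Level of each of the 41 genes (rows, by role) in each of the 9 libraries (columns), as log2 CPM minus the mean log2 CPM of that gene over the 9 libraries, with the color scale cut at 1.5 in either direction. The 3 middle columns, S2-020, are red for most genes, while S2-007 is blue for MARS1, SHMT2 and most regulators, and S2-028 is blue for SLC7A5 and SLC3A2.

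**Figure D2:**
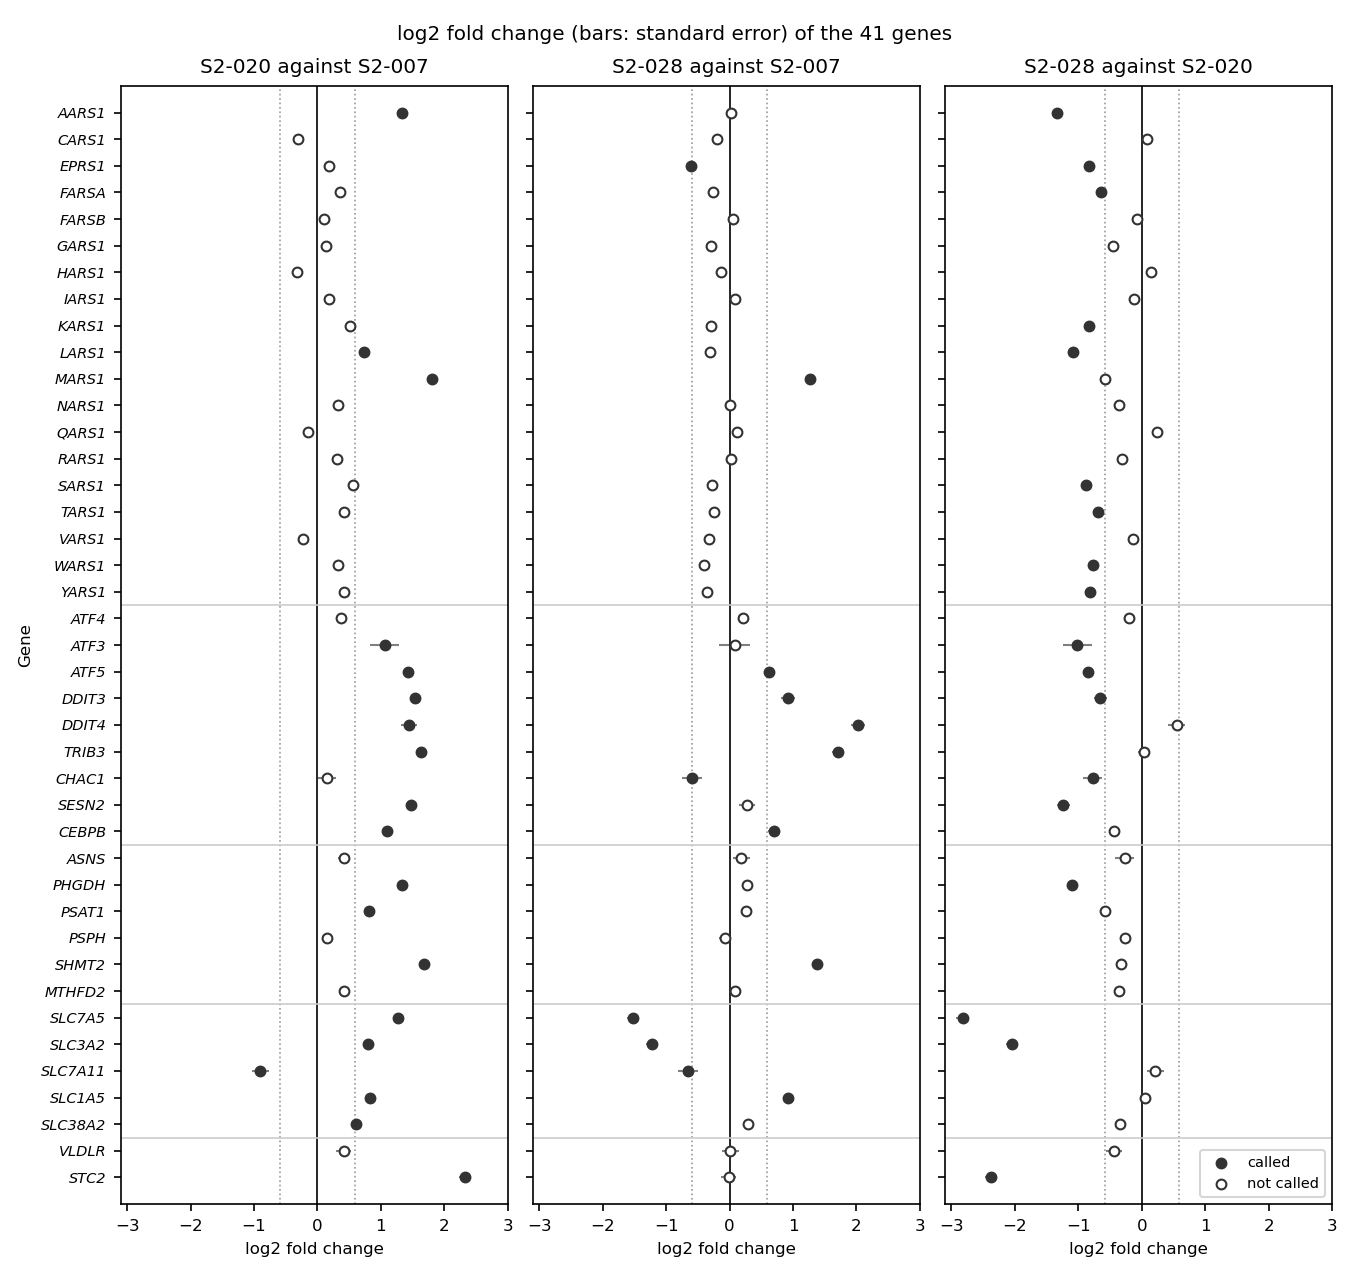
Log2 fold change of each of the 41 genes in the 3 comparisons, with bars of 1 standard error (n = 3 libraries per line), filled points for genes called and dotted lines at a 1.5-fold change in either direction. Most points lie right of 0 for S2-020 against S2-007 (18 called higher), to both sides for S2-028 against S2-007 (8 higher, 5 lower), and left of 0 for S2-028 against S2-020 (18 called lower).

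ATF4 and C/EBP proteins bind a composite element whose core can be written TGATGNAA, and this motif was searched on both strands, overlaps allowed, in RefSeq promoter windows of GRCh38.p14 from 250 bases before to 50 bases after the start. A window was held for 35 of the 41 genes (not for LARS1, VARS1, YARS1, PSPH, SHMT2 and SLC7A11). A gene could have several windows, each at its own start, and these 35 genes had 53. At least 1 match was found for 12 of the 35 (34.3%), beside 1217 of 27305 genes with a window (4.46%). Known ATF4 targets were part of how the list was chosen, so a higher share may follow from that choice. The number of windows per gene was not compared between the list and all genes. The 12 were 7 synthetases (AARS1, CARS1, GARS1, IARS1, MARS1, NARS1 and TARS1), the regulators ATF3 and CHAC1, ASNS, and the transport genes SLC3A2 and SLC1A5. Below are the matches of the 7 genes that were also called in at least 1 comparison, and of ASNS, the gene in which amino acid response elements are best known. Each runs 5′ to 3′ on the strand of its gene, with the match in capitals, which read TTNCATCA where the motif lies on the other strand.
AARS1: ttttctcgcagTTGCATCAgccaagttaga
MARS1: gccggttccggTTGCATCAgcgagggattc
TARS1: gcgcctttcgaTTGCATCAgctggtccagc
ATF3: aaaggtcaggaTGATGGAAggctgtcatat
CHAC1: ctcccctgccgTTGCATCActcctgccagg
ASNS: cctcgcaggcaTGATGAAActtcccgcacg
SLC3A2: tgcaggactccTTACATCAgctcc
SLC1A5: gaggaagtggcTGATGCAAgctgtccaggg
The segments are chr16:70289675-70289704 for AARS1 (minus strand), chr12:57488053-57488082 for MARS1 (plus), chr5:33440956-33440985 for TARS1 (plus), chr1:212565205-212565234 for ATF3 (plus), chr15:40953251-40953280 for CHAC1 (plus), chr7:97872458-97872487 for ASNS (minus), chr11:62881725-62881748 for SLC3A2 (plus) and chr19:46784893-46784922 for SLC1A5 (minus). The matched bases lay 187 to 180 bases before the start in AARS1, 191 to 184 in ATF3, 209 to 202 in CHAC1, 68 to 61 in ASNS and 97 to 90 in SLC1A5. In MARS1 the match ran across the start, and in TARS1 and SLC3A2 it lay after it. The start is here that of the window holding the match. For TARS1, ASNS, SLC3A2 and SLC1A5 that window lay inside the annotated gene, and their other windows held 0 matches. It was chr7:97872359-97872658 in ASNS (gene at chr7:97851677-97928441) and chr11:62881449-62881748 in SLC3A2 (gene at chr11:62856109-62888860). In SLC1A5 it was chr19:46784765-46785064 (gene at chr19:46774883-46788594). All bases of these segments fall in an annotated exon of some GENCODE transcript of the gene, except those of ATF3, of which none do, and those of SLC1A5, of which 13 of 30 do. In S2-020 against S2-007, 5 of the 12 genes with a match and 11 of the 23 with a window and no match were called higher. A match is a description of these letters and not evidence of binding.

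Among the 19 cytosolic synthetases, most calls lay between S2-020 and S2-028. In S2-028 against S2-020, 9 were called lower and 0 higher (AARS1, EPRS1, FARSA, KARS1, LARS1, SARS1, TARS1, WARS1 and YARS1), with a median log2 fold change of -0.57. In S2-020 against S2-007, 3 were called higher (MARS1, AARS1 and LARS1) and 0 lower, and in S2-028 against S2-007 MARS1 was called higher and EPRS1 lower. The 9 were 47.4% of the 19, beside 10.1% of all genes tested, and the 3 were 15.8%, beside 9.57%. The calls of MARS1 and EPRS1 in S2-028 against S2-007 were 5.26% each, beside 10.2% and 8.19%. The summed level of the 19 genes ran from 3367 to 3625 CPM in S2-007, from 4787 to 5182 CPM in S2-020 and from 3037 to 3420 CPM in S2-028, so the libraries of S2-020 lay above all others and those of S2-007 and S2-028 overlapped.

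AARS1, which charges alanine tRNA, measured 289, 294 and 279 CPM in S2-007, 737, 682 and 793 CPM in S2-020, and 317, 281 and 279.6 CPM in S2-028. All 3 S2-020 libraries lay above the other 6, and those of S2-007 and S2-028 overlapped. It was 2.51-fold higher in S2-020 than in S2-007 (log2 fold change 1.33, standard error 0.0562, adjusted p = 1.45e-13) and 2.52-fold lower in S2-028 than in S2-020 (log2 fold change -1.33, standard error 0.0608, adjusted p = 8.65e-13). MARS1, the methionine enzyme, measured 147, 151 and 154 CPM in S2-007, 539, 497 and 587 CPM in S2-020, and 374, 329.6 and 384 CPM in S2-028. The 3 lines did not overlap, and S2-007 was the low one: MARS1 was 3.51-fold higher in S2-020 than in S2-007 and 2.41-fold higher in S2-028 than in S2-007 (adjusted p = 2.11e-15 and 1.23e-12). In S2-028 against S2-020 its log2 fold change of -0.57 fell just short of the threshold, and it passed without S2-028 replicate 1 (-0.60), S2-028 replicate 3 (-0.61) or S2-020 replicate 2 (-0.64).

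LARS1, the leucine enzyme and also a leucine sensor for mTORC1, measured 136, 149.9 and 151 CPM in S2-007, 248, 246 and 248 CPM in S2-020, and 121, 108 and 121 CPM in S2-028. The 3 lines did not overlap, and the log2 fold change was 0.73 (standard error 0.0520) in S2-020 against S2-007 and -1.08 (standard error 0.0553) in S2-028 against S2-020. SARS1, the serine enzyme, measured 146, 146 and 151 CPM in S2-007, 225, 203 and 239.6 CPM in S2-020, and 130.0, 110.3 and 124 CPM in S2-028. It was called lower in S2-028 than in S2-020 (log2 fold change -0.87, standard error 0.0679, adjusted p = 2.58e-09), while its log2 fold change of 0.56 in S2-020 against S2-007 missed the threshold and passed it without S2-020 replicate 2 (0.63) or S2-007 replicate 3 (0.60), and with RLE size factors, DESeq2 or one fit over 9 libraries (each 0.59). EPRS1, which charges both glutamate and proline tRNAs, measured 231, 249 and 246 CPM in S2-007, 281, 271 and 292 CPM in S2-020, and 164, 141 and 169.8 CPM in S2-028. All 3 S2-028 libraries were the lowest, at a log2 fold change of -0.83 against S2-020 and -0.61 against S2-007, and the call against S2-007 was lost without S2-028 replicate 2 (-0.54) or S2-007 replicate 2 (-0.58).

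The other 5 synthetases called lower in S2-028 than in S2-020 lay between -0.84 (KARS1, the lysine enzyme) and -0.64 (FARSA, a subunit of the phenylalanine enzyme), with YARS1 (tyrosine) at -0.82, WARS1 (tryptophan) at -0.77 and TARS1 (threonine) at -0.70. FARSB, the partner subunit of FARSA in the same enzyme, was at -0.08 (adjusted p = 0.438). The remaining 8 synthetases with no call in any comparison besides FARSB were CARS1, GARS1, HARS1, IARS1, NARS1, QARS1, RARS1 and VARS1, which charge cysteine, glycine, histidine, isoleucine, asparagine, glutamine, arginine and valine. Of these, CARS1, HARS1, QARS1 and VARS1 had lower means in S2-020 than in S2-007, at log2 fold changes of -0.30, -0.32, -0.15 and -0.23, the opposite sign to the other 15. Per kilobase of the MANE Select transcript, the mean level was highest for KARS1 in S2-007 (134 CPM per kb), for AARS1 in S2-020 (214 CPM per kb) and for MARS1 in S2-028 (129.7 CPM per kb). By this measure FARSB was lowest in all 3 lines, at 14.9, 16.3 and 15.4 CPM per kb for S2-007, S2-020 and S2-028. That rank depends on the transcript length used, 6761 bases for FARSB beside 1811 for FARSA. In CPM, FARSB averaged 101, 110 and 104 in the 3 lines, above CARS1 at 65.8, 54.5 and 57.4.

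ATF4 itself was called in no comparison, while most of the stress response regulators were. ATF4 measured 185, 197 and 194 CPM in S2-007, 263, 246 and 256 CPM in S2-020, and 232, 201 and 233 CPM in S2-028, and the 3 lines were ordered S2-007, S2-028, S2-020 with no overlap. Its log2 fold changes of 0.38 (standard error 0.0507) in S2-020 against S2-007, 0.21 (standard error 0.0651) in S2-028 against S2-007 and -0.20 (standard error 0.0581) in S2-028 against S2-020 had adjusted p values of 3.83e-06, 0.0137 and 0.00945, with none reaching the fold threshold. Of the 31-base words in its MANE Select transcript, 53.8% also occur in other genes, mainly the pseudogene ATF4P4, so reads of ATF4 may have been shared. Of the 9 regulators, 7 were called higher and 0 lower in S2-020 than in S2-007, 5 higher and 1 lower in S2-028 than in S2-007, and 0 higher and 5 lower in S2-028 than in S2-020. The 7 were 77.8% of the 9, beside 9.57% of all genes tested, and the 5 lower were 55.6%, beside 10.1%. In S2-028 against S2-007 the shares were 55.6% and 11.1%, beside 10.2% and 8.19%.

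DDIT4 (REDD1), an inhibitor of mTORC1, measured 30.3, 23.0 and 26.0 CPM in S2-007, 72.9, 55.7 and 91.7 CPM in S2-020, and 118, 86.8 and 117 CPM in S2-028. All S2-007 libraries lay below the other 6, while those of S2-020 and S2-028 overlapped. It was 4.07-fold higher in S2-028 than in S2-007 (log2 fold change 2.02, standard error 0.109, adjusted p = 2.98e-12) and 2.71-fold higher in S2-020 than in S2-007 (log2 fold change 1.44, standard error 0.128, adjusted p = 1.37e-08). Against S2-020 the log2 fold change of S2-028 was 0.55, under the threshold, and it passed without S2-028 replicate 2 (0.70) or S2-020 replicate 3 (0.74), which is the 1 gene of the list then called higher. TRIB3, a pseudokinase that restrains ATF4, measured 13.99, 14.7 and 17.1 CPM in S2-007, 48.4, 43.5 and 54.0 CPM in S2-020, and 52.5, 45.3 and 51.1 CPM in S2-028. Again S2-007 alone was low, with log2 fold changes of 1.70 (standard error 0.0891) for S2-028 and 1.64 (standard error 0.0883) for S2-020 against it, and 0.03 (standard error 0.0807) between the 2 high lines.

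DDIT3 (CHOP), the transcription factor tied to apoptosis under prolonged stress, measured 11.7, 12.4 and 12.2 CPM in S2-007, 36.0, 32.8 and 39.4 CPM in S2-020, and 26.6, 21.6 and 20.5 CPM in S2-028. The lines did not overlap and ran from S2-007 through S2-028 to S2-020, at log2 fold changes of 1.54 (standard error 0.0844) for S2-020 and 0.92 (standard error 0.108) for S2-028 against S2-007. The call in S2-028 against S2-020, at -0.65, was lost without S2-028 replicate 3 (-0.57). SESN2, a leucine-binding inhibitor of mTORC1, measured 11.8, 10.3 and 11.9 CPM in S2-007, 33.6, 30.8 and 32.1 CPM in S2-020, and 15.9, 11.8 and 13.2 CPM in S2-028. It was high in S2-020 alone, at log2 fold changes of 1.48 (standard error 0.0851) in S2-020 against S2-007 and -1.24 (standard error 0.102) in S2-028 against S2-020, and the libraries of S2-007 and S2-028 overlapped.

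ATF5, a relative of ATF4, averaged 27.7 ± 2.70, 76.1 ± 2.82 and 42.4 ± 2.77 CPM (SD, n = 3) for S2-007, S2-020 and S2-028, and its log2 fold change of 0.62 in S2-028 against S2-007 fell under the threshold without S2-028 replicate 3 (0.57) or S2-007 replicate 1 (0.56). CEBPB, a partner of ATF4, averaged 39.7 ± 4.06, 86.8 ± 7.25 and 64.1 ± 4.08 CPM and was called higher in S2-020 and S2-028 than in S2-007 (1.10 and 0.69). ATF3, a stress-induced repressor, was low throughout at 1.52 ± 0.219, 3.25 ± 0.817 and 1.60 ± 0.111 CPM, with S2-020 called higher than S2-007 (1.06 (standard error 0.226)). CHAC1, which degrades glutathione, went the other way from the other regulators in S2-028 against S2-007: it averaged 7.11 ± 1.25, 8.07 ± 0.916 and 4.71 ± 0.480 CPM and was called lower in S2-028 than in S2-020 (-0.77). Its call against S2-007, at -0.59, was lost without S2-028 replicate 2 (-0.55), S2-028 replicate 3 (-0.55) or S2-007 replicate 2 (-0.43), and with no filter on low counts (-0.58).

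Of the 6 genes of amino acid synthesis and mitochondrial folate, 3 were called higher in S2-020 than in S2-007 and 0 lower. The 3 were 50% of the 6, beside 9.57% of all genes tested. PHGDH, the first enzyme of serine synthesis, measured 102, 109 and 107 CPM in S2-007, 271, 249.7 and 296 CPM in S2-020, and 136, 113 and 133 CPM in S2-028. The S2-020 libraries lay above the other 6, at log2 fold changes of 1.33 (standard error 0.0607) in S2-020 against S2-007 and -1.10 (standard error 0.0710) in S2-028 against S2-020. PSAT1, the second enzyme of that route, measured 103, 113 and 108 CPM in S2-007, 198, 178 and 202 CPM in S2-020, and 139, 108 and 139 CPM in S2-028. It was called higher in S2-020 than in S2-007 (0.81 (standard error 0.0592)), and in S2-028 against S2-020 its value of -0.58 passed the threshold without S2-028 replicate 1 (-0.64), S2-028 replicate 3 (-0.63) or S2-020 replicate 2 (-0.64), and with no filter on low counts (-0.59). PSPH, the last enzyme of the route, was not called and its log2 fold changes ran only from -0.26 to 0.14.

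SHMT2, which turns serine into glycine in the mitochondrion, measured 149, 151 and 169 CPM in S2-007, 500.4, 475 and 561 CPM in S2-020, and 424, 364 and 430.2 CPM in S2-028. The lines did not overlap and S2-007 was low, with S2-020 3.21-fold and S2-028 2.61-fold higher than S2-007 (adjusted p = 1.91e-14 and 1.09e-12). MTHFD2, the next enzyme of the mitochondrial folate route, was not called, at 0.41 in S2-020 against S2-007. ASNS, which makes asparagine, was not called either: it averaged 44.7 ± 3.14, 61.2 ± 11.4 and 50.7 ± 13.5 CPM, with S2-028 replicate 2 the lowest of all 9 libraries at 35.2 CPM. Nearly all of the ASNS transcript (99.5%) is also annotated in GENCODE under a second, overlapping gene. In the same annotation, 36.8% of the exon bases of MTHFD2 lie under genes on the opposite strand. Counts of both may depend on how such reads were assigned, if the annotation used for counting also holds these genes. For PSPH and PSAT1, 19.1% and 15.5% of 31-base words also occur in other genes.

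Among the 5 amino acid transport genes, SLC7A5 and SLC3A2 were highest in S2-020 and lowest in S2-028, SLC1A5 was low in S2-007, and SLC7A11 was high in S2-007. The fall of SLC7A5 in S2-028 was the largest of the list against either other line. SLC7A5 (LAT1), which brings in leucine and other large neutral amino acids, measured 1323, 1310.2 and 1611 CPM in S2-007, 3879, 3308 and 3237 CPM in S2-020, and 508, 390.1 and 573 CPM in S2-028. The 3 lines did not overlap: S2-020 was 2.41-fold higher than S2-007 (adjusted p = 7.02e-12), and S2-028 was 2.88-fold lower than S2-007 (adjusted p = 6.97e-11) and 7.08-fold lower than S2-020 (adjusted p = 1.82e-14). SLC3A2 (4F2hc), the heavy chain that pairs with SLC7A5 at the membrane, measured 354, 355 and 420.2 CPM in S2-007, 742, 640.3 and 614 CPM in S2-020, and 173, 128 and 180.5 CPM in S2-028. It kept the same order with no overlap, at log2 fold changes of 0.79 (standard error 0.0686) in S2-020 against S2-007, -1.22 (standard error 0.0965) in S2-028 against S2-007 and -2.05 (standard error 0.0966) in S2-028 against S2-020.

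Per kilobase of transcript, SLC7A5 stood above its partner in S2-007 (288 to 354 against 188 to 223 CPM per kb) and in S2-020 (710.4 to 851 against 326 to 393 CPM per kb). In S2-028 the pair was nearer, at 85.6 to 126 CPM per kb for SLC7A5 and 67.9 to 95.8 for SLC3A2. The gap within each line depends on the transcript lengths used, 4556 bases for SLC7A5 beside 1885 for SLC3A2, and these are levels of RNA. SLC7A11 (xCT), which also uses SLC3A2 and exchanges glutamate for cystine, measured 43.8, 55.7 and 75.7 CPM in S2-007, 30.2, 29.3 and 36.5 CPM in S2-020, and 36.5, 27.5 and 46.9 CPM in S2-028. It was the 1 gene of the list called lower in S2-020 than in S2-007 (log2 fold change -0.90, standard error 0.128, adjusted p = 8.01e-06). Its call lower in S2-028 than in S2-007, at -0.65, rests on libraries that overlap, and it was lost without S2-028 replicate 2 (-0.49) or S2-007 replicate 3 (-0.44) and in DESeq2 (adjusted p = 0.0982).

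SLC1A5 (ASCT2), a glutamine carrier, measured 202, 213 and 232 CPM in S2-007, 397, 365 and 407 CPM in S2-020, and 427, 383 and 406 CPM in S2-028. S2-007 lay below the other 6 libraries, at log2 fold changes of 0.92 (standard error 0.0630) for S2-028 and 0.82 (standard error 0.0564) for S2-020 against it, and the other 2 lines overlapped. In GENCODE, genes on the opposite strand cover 27.6% of its exon bases. SLC38A2 (SNAT2), a carrier of small neutral amino acids, averaged 304 ± 5.81, 471 ± 43.1 and 370.2 ± 11.9 CPM and was called higher in S2-020 than in S2-007 (0.60), a call lost without S2-020 replicate 1 (0.54).

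STC2, a secreted glycoprotein, had the largest rise of the list in S2-020. It measured 32.5, 35.4 and 48.9 CPM in S2-007, 204, 203 and 191 CPM in S2-020, and 31.8, 38.0 and 45.3 CPM in S2-028. The S2-020 libraries lay far above the other 6, at 5.02-fold the level of S2-007 (log2 fold change 2.33, standard error 0.0978, adjusted p = 1.28e-13), and S2-028 was 5.20-fold lower than S2-020 (log2 fold change -2.38, standard error 0.0897, adjusted p = 5.02e-14). Between S2-028 and S2-007 the libraries overlapped, and the log2 fold change was -0.02 (standard error 0.122). VLDLR, a lipoprotein receptor, averaged 6.86 ± 0.401, 9.35 ± 0.734 and 6.89 ± 0.154 CPM and was not called.

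**Figure D3:**
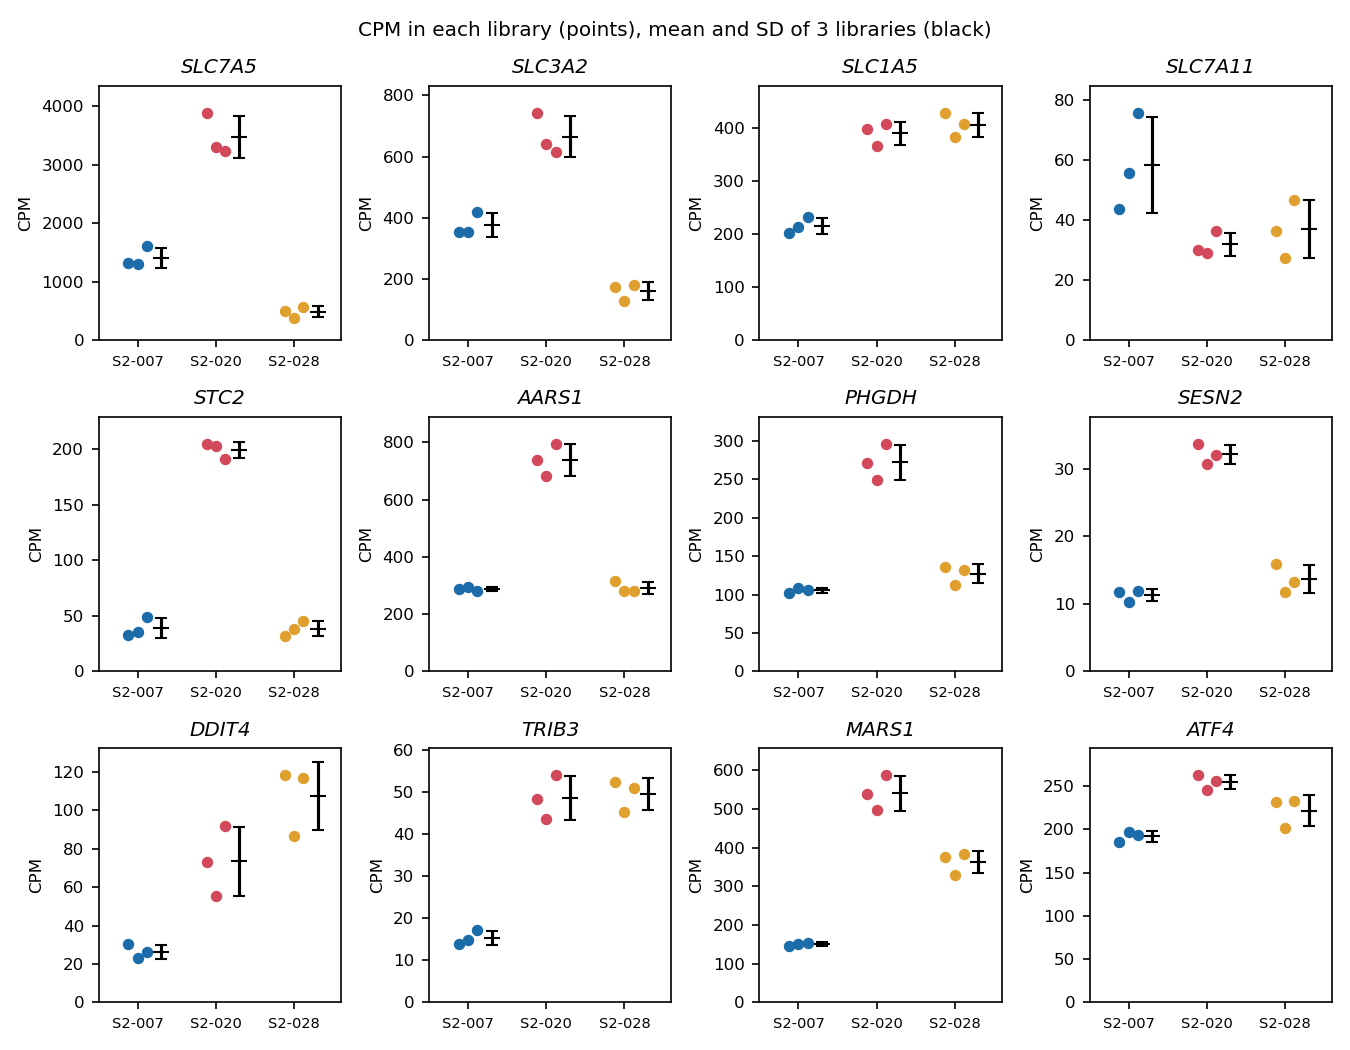
CPM of 12 genes in each library (points; S2-007 blue, S2-020 red, S2-028 yellow), with the mean and SD of the 3 libraries of each line in black, on axes that start at 0. SLC7A5 and SLC3A2 fall from S2-020 through S2-007 to S2-028, STC2, AARS1, PHGDH and SESN2 are high in S2-020 alone, and DDIT4, TRIB3 and SLC1A5 are low in S2-007 alone.

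Some members lie in stretches of chromosome where many genes differed the same way. MARS1 (chr12:57488068-57516652) and DDIT3 (chr12:57516588-57520517) overlap at their ends on opposite strands, and SHMT2 (chr12:57229711-57234935) lies close by (GRCh38.p14). Of the exon bases of DDIT3 in GENCODE, 24.2% lie under genes annotated on the opposite strand and 11.6% under another gene on the same strand. Of its 31-base words, 8.59% also occur in other genes, so its counts may depend on how such reads were assigned. The 50 tested genes nearest to each of the 3 had a median log2 fold change of 0.94 to 0.96 in S2-028 against S2-007 and of 0.87 in S2-020 against S2-007, while in S2-028 against S2-020 it was between -0.05 and 0.00. Measured from that median, MARS1, DDIT3 and SHMT2 were at 0.33, -0.03 and 0.42 in S2-028 against S2-007, under the threshold, and at 0.94, 0.67 and 0.81 in S2-020 against S2-007, past it. The neighbours of ATF5 were at 0.43 and those of SLC1A5 at 0.35 in S2-028 against S2-007, and ATF5 and SLC1A5 were also under the threshold when measured from them (0.18 and 0.57). On chromosome 16, the neighbours of SLC7A5 were at -0.71, those of AARS1 at -0.45 and those of KARS1 at -0.51 in S2-028 against S2-020, and from these medians SLC7A5 was at -2.12, AARS1 at -0.88 and KARS1 at -0.33.

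With the fold taken from the neighbours and each gene's own adjusted p under 0.05 still required, 3 of the 41 genes were past the threshold upward in S2-028 against S2-007 (DDIT4, TRIB3 and CEBPB) in place of 8, and 4 downward in place of 5. In S2-020 against S2-007, 17 in place of 18 were past it upward, without LARS1, SLC1A5 and SLC38A2 and with ASNS and MTHFD2. FARSB was at 0.82 from its neighbours there but had an adjusted p of 0.262 in edgeR. In S2-028 against S2-020, 15 in place of 18 were past it downward and 1, DDIT4, upward. The copy number of these regions was not measured, and its part in the result was not tested.

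**Figure D4:**
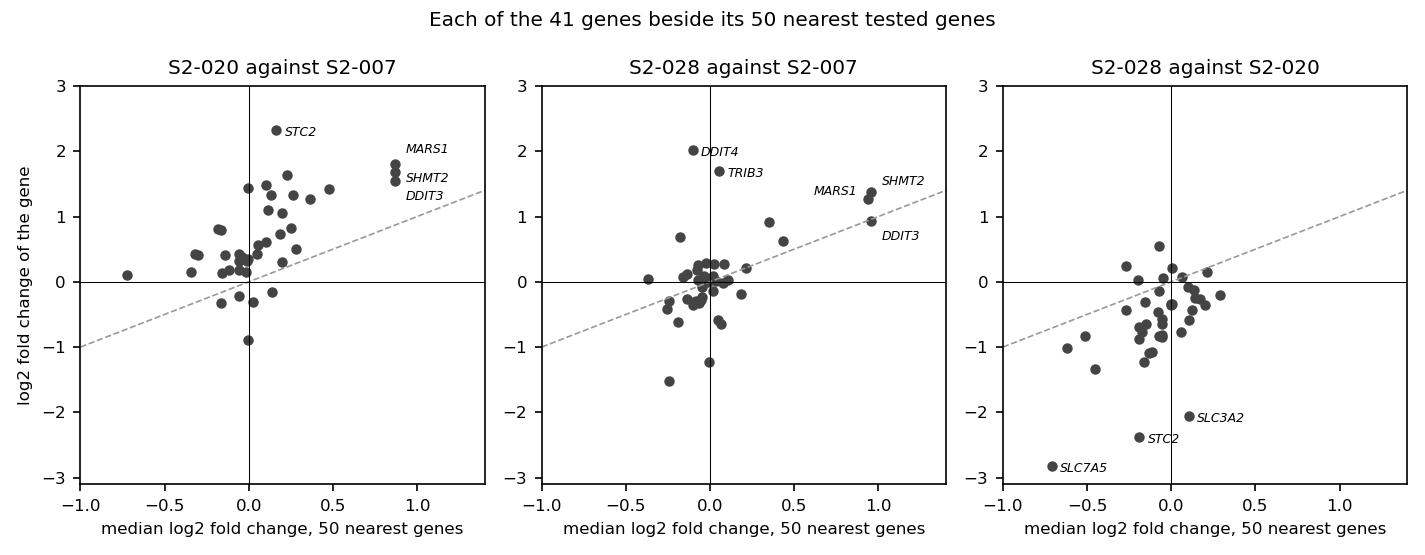
Log2 fold change of each of the 41 genes (vertical axis) against the median log2 fold change of the 50 tested genes nearest to it on its chromosome (horizontal axis), with a dashed line where both are equal. MARS1, SHMT2 and DDIT3 stand apart to the right at 0.87 in S2-020 against S2-007 and at 0.94 to 0.96 in S2-028 against S2-007, and DDIT4, TRIB3, STC2 and SLC3A2 lie far from the dashed line.

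Of 5 further cytosolic genes, scaffold proteins of the multi-synthetase complex among them, 0 were called in S2-020 against S2-007 and in S2-028 against S2-007, and only AIMP1 was called in S2-028 against S2-020 (-0.62), a call lost without S2-028 replicate 2 (-0.58). With edgeR at an unadjusted p under 0.05, 0 of the 5 passed in S2-020 against S2-007, and 2 were higher and 1 lower in S2-028 against S2-007. Among 17 mitochondrial synthetases, which charge the tRNAs of the organelle, 0 were called in S2-020 against S2-007 (median 0.12), 1 was lower in S2-028 against S2-007 (IARS2, -0.71), and 3 were lower in S2-028 against S2-020 (IARS2 -0.69, LARS2 -0.64 and CARS2 -0.79), which is 17.6% beside 10.1% of all genes. In S2-020 against S2-007, 7 of the 17 were higher and 3 lower at an unadjusted p under 0.05. Without S2-020 replicate 3, 1 of the 17 was called higher in S2-028 against S2-020.

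Upstream of ATF4, of 14 genes for eIF2α kinases, phosphatase subunits and related factors, EIF2AK4, which encodes GCN2, was called higher in S2-020 than in S2-007 (0.68), and PPP1R15A (GADD34), the stress-induced phosphatase subunit and itself an ATF4 target, was called higher in S2-020 (0.62) and in S2-028 (0.92) than in S2-007. These are 14.3% of the 14 in S2-020 and 7.14% in S2-028, beside 9.57% and 10.2% of all genes. In S2-028 against S2-020 edgeR called 0 of the 14, with 3 higher and 5 lower at an unadjusted p under 0.05. Among 18 tested further ATF4 targets, 8 were called higher and 1 lower in S2-020 than in S2-007, 3 higher and 5 lower in S2-028 than in S2-007, and 0 higher and 10 lower in S2-028 than in S2-020, with medians of 0.53, -0.14 and -0.80. These were 44.4% higher and 5.56% lower, beside 9.57% and 12.1% of all genes, then 16.7% and 27.8%, beside 10.2% and 8.19%. The 10 lower were 55.6%, beside 10.1% of all genes. ALDH1L2, a mitochondrial folate enzyme, averaged 13.0 ± 0.0857, 116 ± 21.2 and 4.19 ± 0.933 CPM and was 8.76-fold higher in S2-020 than in S2-007. XPOT, which exports tRNA from the nucleus, and EIF4EBP1, a repressor of cap-dependent translation, were also called higher in S2-020 than in S2-007 (0.94 and 0.69). GDF15, a secreted stress hormone, was 4.34-fold lower in S2-028 than in S2-007 (10.7 ± 1.73 against 46.5 ± 5.09 CPM), and PYCR1, of proline synthesis, and SLC7A1, an arginine and lysine carrier, were called lower there too (-0.79 and -0.84). The lists share genes, so their counts are not separate. PPP1R15A is also counted among the further targets, and SLC7A1 also among the other amino acid transporters below. The single further target called lower in S2-020 than in S2-007 was under the threshold without S2-020 replicate 1 or S2-007 replicate 1.

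Among 18 other amino acid transporters, 7 were called higher and 2 lower in S2-020 than in S2-007, 2 higher and 3 lower in S2-028 than in S2-007, and 1 higher and 7 lower in S2-028 than in S2-020. These were 38.9% higher and 11.1% lower, beside 9.57% and 12.1% of all genes, then 11.1% and 16.7%, beside 10.2% and 8.19%. In S2-028 against S2-020 they were 5.56% and 38.9%, beside 12.1% and 10.1%. SLC3A1, the heavy chain of a cystine and basic amino acid carrier, rose from 4.95 CPM in S2-007 to 32.9 CPM in S2-020 (2.70). SLC7A2, a basic amino acid carrier, and SLC7A6, a light chain that also pairs with SLC3A2, were called higher in S2-020 than in S2-007 as well (1.60 and 1.07). The 1 transporter higher in S2-028 than in S2-020 was not called without S2-020 replicate 2. Among 15 targets of the unfolded protein response, the stress program of the endoplasmic reticulum that also feeds into ATF4, CALR alone was called in S2-020 against S2-007 (0.71), DNAJB11 was higher and DNAJC3 lower in S2-028 against S2-007 (0.65 and -1.01), and 1 was higher and 4 lower in S2-028 against S2-020. A single gene is 6.67% of the 15, under the 9.57%, 10.2%, 8.19% and 12.1% of all genes in the same places. The 4 lower were 26.7%, beside 10.1% of all genes. The count of 4 was 2 without S2-028 replicate 3, and the count higher was 0 without S2-028 replicate 2, S2-020 replicate 1 or S2-020 replicate 2. In S2-028 against S2-007 the count higher was 2 without S2-028 replicate 1 or 3 or S2-007 replicate 1 or 2.

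**Figure D5:**
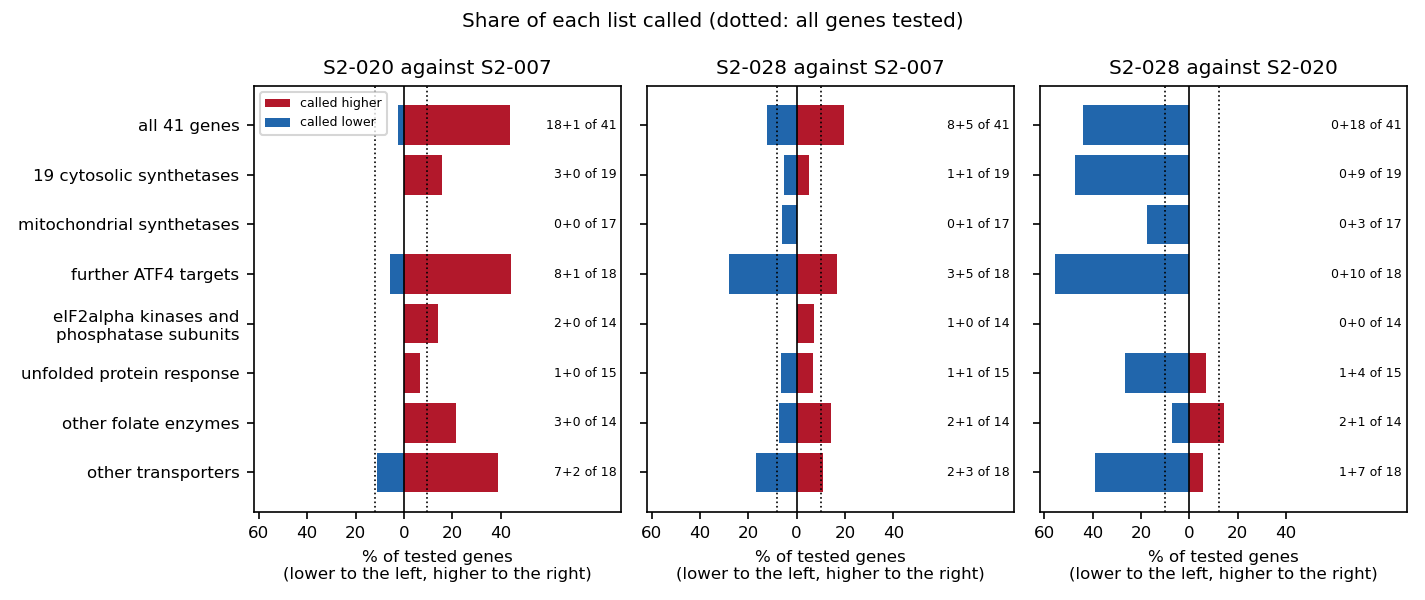
Share of each gene list called higher (red, to the right) and lower (blue, to the left) in each comparison, as percent of the genes tested, with the counts called higher plus lower at the right and dotted lines at the shares of all genes tested. In S2-028 against S2-020 the 41 genes, the 19 cytosolic synthetases and the further ATF4 targets reach 43.9%, 47.4% and 55.6% called lower, beside 10.1% of all genes, and the mitochondrial synthetases reach 17.6%.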

How the data were processed

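Strand-specific mRNA libraries from 3 sublines (3 per line) were sequenced on a NovaSeq instrument. The authors trimmed reads with Trimmomatic 0.39 and aligned them to GRCh38.p14 with BWA 0.7.17, and SAMtools 1.12 and edgeR 3.16.5 are also named in the submitters' processing notes. How reads were counted, and how strand and multi-mapping reads were treated, is not given in the sources used here. The deposited table holds raw read counts per gene for each library, which were used here, and normalized values per gene (a signal scaled by the authors), which were not. Lines of the table that name no gene (2) were left out, and 42539 of the gene identifiers (99.6%) matched RefSeq.

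Lines were compared in pairs, with the 6 libraries of each pair, in edgeR 4.0.16 (R 4.3.3): filterByExpr (minimum count 10, minimum total 15), TMM factors, the quasi-likelihood test and Benjamini-Hochberg adjustment over all genes tested. The study's methods name a likelihood ratio test, which was an alternative here, and a later edgeR version than the submitters' notes. Its supplementary list of called genes is titled QLF, which can stand for a quasi-likelihood F test, so its test is not certain. Genes were called where the adjusted p was under 0.05 and the change at least 1.5-fold in either direction. CPM used TMM-scaled library sizes, and levels per kilobase used MANE Select transcript lengths. DESeq2 1.42.0 and the other settings named in the closing section were alternatives, and the fit of S2-028 against S2-007 was tested on simulated counts. Total counts of 60328748 to 86253923 per library set the counting precision, and libraries of 1 line differed by more than sampling noise. Every member is named. Of each other gene list, at most 3 called genes per comparison are named, those with the smallest adjusted p, with SERPINB5 besides; 1 other gene that the rule names is not reported here. The members and lists were chosen with earlier results of these data known.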

Additional observations from a re-analysis of the deposited data

How the results depend on the processing

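Under the alternatives to the test, filter, scaling or libraries, no call among the 41 genes was reversed, and most counts stayed within 1.5 times. Log2 fold changes near 0 of genes not called could change sign, as for AARS1 in S2-028 against S2-007 (-0.04 to 0.06 with 1 library left out). In S2-028 against S2-007 the 5 genes called lower became 2 when the test was made against a 1.5-fold change, and ranged from 2 to 5 when 1 library was left out (2 without S2-028 replicate 2, 3 without S2-007 replicate 2). The count higher, 8, was 6 in the test against 1.5-fold and ran from 7 to 8 with 1 library left out. In S2-020 against S2-007, 18 higher became 17 to 19, and in S2-028 against S2-020, 18 lower became 18 to 20 with 1 library left out and 13 in the test against 1.5-fold, while 0 higher became 0 to 1, the 1 being DDIT4. Measured from the 50 nearest genes, an alternative chosen after seeing the data, 3 genes were higher and 4 lower in S2-028 against S2-007, in place of 8 and 5, so that more were then lower than higher, and 1 was higher in S2-028 against S2-020. Same-numbered libraries did not deviate together (correlations from -0.0219 to 0.0140). That shows no shared deviation over all genes, but it cannot show whether such libraries were prepared together. A fit with the replicate block gave 8 higher and 4 lower in S2-028 against S2-007, 18 and 1 in S2-020 against S2-007, and 0 and 19 in S2-028 against S2-020. In that fit CHAC1 was no longer called in S2-028 against S2-007 (-0.58), and PSAT1 was called in S2-028 against S2-020 (-0.59). The test against 1.5-fold did not call EPRS1, ATF5, CHAC1, CEBPB and SLC7A11 in S2-028 against S2-007, SLC38A2 in S2-020 against S2-007, or FARSA, TARS1, ATF3, DDIT3 and CHAC1 in S2-028 against S2-020. By gene, 36, 39 and 33 of the 41 kept their call status under all 14 alternatives to the test, filter, scaling or libraries in S2-028 against S2-007, S2-020 against S2-007 and S2-028 against S2-020. Depth limited ATF3 the most: its lowest count in a library was 90, and its standard error was the largest of the 41 in each comparison, from 0.225 to 0.249 on the log2 scale.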

Other observations

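Of 12 close relatives of the 41 genes, 4 were called higher and 1 lower in S2-020 against S2-007, 3 higher and 4 lower among the 11 tested in S2-028 against S2-007, and 0 higher and 3 lower among the 11 tested in S2-028 against S2-020 (1 higher at an unadjusted p under 0.05 in edgeR, 0 called in DESeq2). These were 33.3% higher and 8.33% lower, beside 9.57% and 12.1% of all genes, then 27.3% and 36.4%, beside 10.2% and 8.19%. The 3 lower were 27.3%, beside 10.1%. JUN, which pairs with ATF proteins, averaged 49.9 ± 6.77, 319.6 ± 13.7 and 138 ± 5.44 CPM (SD, n = 3) for S2-007, S2-020 and S2-028, and was 6.28-fold higher in S2-020 than in S2-007. TRIB2, a relative of TRIB3, averaged 17.3 ± 0.609, 41 ± 2.49 and 8.05 ± 1.03 CPM and was called lower in S2-028 than in S2-020 (-2.35), where TRIB3 was at 0.03. SESN3, a relative of SESN2, averaged 15.3 ± 3.66, 3.19 ± 0.333 and 2.37 ± 0.369 CPM and was called lower in S2-028 than in S2-007 (-2.68), where SESN2 was at 0.28.

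Among 14 other enzymes of folate and glycine metabolism, 3 were called higher and 0 lower in S2-020 against S2-007, 2 higher and 1 lower in S2-028 against S2-007, and 2 higher and 1 lower in S2-028 against S2-020. The 3 higher were 21.4% of the 14, beside 9.57% of all genes tested. The other 2 pairs of counts were near the shares of all genes. Each was 14.3% higher and 7.14% lower, beside 10.2% and 8.19% in S2-028 against S2-007 and 12.1% and 10.1% in S2-028 against S2-020. TYMS, which makes thymidylate, averaged 333 ± 14.8 CPM in S2-020 and 172 ± 7.68 CPM in S2-007 (called higher, 0.92). GLDC, of the glycine cleavage system, was called higher in S2-020 and in S2-028 than in S2-007 (1.37 and 2.10), from a low level of 1.28 ± 0.139 CPM, and its call in S2-028 against S2-020 (0.69) was lost without S2-028 replicate 3 (0.50). GCSH, of the same system, was called higher in both as well (0.61 and 0.64), the first lost without S2-007 replicate 1 (0.58). SHMT1, the cytosolic counterpart of SHMT2, was called higher in S2-028 than in S2-020 (0.83), where SHMT2 was at -0.33. With 1 library left out, S2-020 replicate 2, the count lower was 1 in S2-020 against S2-007 and 2 in S2-028 against S2-020.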
